A study of Mus musculus with 16 samples.

Results

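Cholesterol synthesis and transport were examined through 28 genes, taken as a list by function from the 35976 genes of the count table, with earlier results of these data known. The list holds 18 enzymes that turn acetyl-CoA into cholesterol, 5 genes that control the sterol-sensing transcription factors (SREBPs) and 5 genes of cholesterol transport. RNA came from mouse neural tube organoids on day 4, grown from the R1 embryonic stem cell line with a FOXA2-Venus genotype and exposed to retinoic acid (RA) for 18 hours. Cells were divided by FOXA2 expression into negative, low, medium and high groups, called gates here, with 4 libraries in each gate. FOXA2 is a transcription factor that marks cells of the floor plate, which lies along the ventral midline. All 16 libraries share the cell line, the genotype and the RA treatment, so that the gates differ by FOXA2 level only as far as the labels say, and every value comes from a single stem cell line. Of the 28 genes, 27 passed the filter on low counts and were tested. Abca1, a cholesterol exporter, was not tested: it had 63 counts over the 16 libraries, with 0 to 8 in any library.

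Cells make cholesterol from acetyl-CoA through mevalonate, farnesyl diphosphate, squalene and lanosterol, and the last enzymes trim lanosterol to cholesterol. When sterols are scarce in the endoplasmic reticulum, SCAP carries SREBPs to the Golgi, where they are cut and released to switch on the genes of synthesis. INSIG proteins hold SCAP back when sterols are plentiful, and Insig1 is itself an SREBP target. Cholesterol taken up by the cell leaves the lysosome through NPC2 and NPC1. In the neural tube, sterols matter to Hedgehog signalling, because the SHH ligand carries a cholesterol group, PTCH1 resembles a sterol transporter and SMO binds sterols.

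The sequences before the starts of 5 of these genes are shown because the genes carry the results below: Hmgcs1, Mvd, Ebp and Insig1 fell in FOXA2-high libraries and Npc2 rose there. They are from the RefSeq promoter table for GRCm38.p6, in the direction of transcription, and end before the first annotated base of the gene in both RefSeq and GENCODE M21. Capitals mark the inverted CCAAT box of the factor NF-Y (ATTGG, or CCAAT on the other strand) and, in Hmgcs1 only among these 5, a match to the sterol regulatory element core TCACNCCAC to which SREBPs bind.
Hmgcs1, chr13:119690101-119690350, plus strand: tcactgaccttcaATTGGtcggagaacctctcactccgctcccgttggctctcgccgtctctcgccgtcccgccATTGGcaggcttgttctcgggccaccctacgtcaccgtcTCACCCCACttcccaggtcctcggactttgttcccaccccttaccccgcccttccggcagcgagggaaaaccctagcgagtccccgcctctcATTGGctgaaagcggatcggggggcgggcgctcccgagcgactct
Mvd, chr8:122443423-122443672, minus strand: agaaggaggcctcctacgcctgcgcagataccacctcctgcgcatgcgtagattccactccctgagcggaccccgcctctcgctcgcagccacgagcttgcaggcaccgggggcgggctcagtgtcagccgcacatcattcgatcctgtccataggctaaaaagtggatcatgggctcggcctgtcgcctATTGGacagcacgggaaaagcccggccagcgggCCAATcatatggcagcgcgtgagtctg
Ebp, chrX:8193513-8193762, minus strand: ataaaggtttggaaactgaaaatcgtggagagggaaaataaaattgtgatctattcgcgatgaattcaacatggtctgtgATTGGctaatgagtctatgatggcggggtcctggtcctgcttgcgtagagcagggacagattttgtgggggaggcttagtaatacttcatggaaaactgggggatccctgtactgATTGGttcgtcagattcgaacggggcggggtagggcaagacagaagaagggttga
Insig1, chr5:28071162-28071362, plus strand: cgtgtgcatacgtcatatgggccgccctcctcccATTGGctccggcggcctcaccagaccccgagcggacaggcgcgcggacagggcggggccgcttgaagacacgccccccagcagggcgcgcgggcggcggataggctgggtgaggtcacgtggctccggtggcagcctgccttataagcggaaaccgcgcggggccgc
Npc2, chr12:84773153-84773362, minus strand: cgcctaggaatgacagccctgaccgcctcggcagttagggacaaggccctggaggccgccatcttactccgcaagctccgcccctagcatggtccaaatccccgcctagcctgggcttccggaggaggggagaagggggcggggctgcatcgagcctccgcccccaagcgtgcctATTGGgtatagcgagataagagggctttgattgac

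Promoter windows of 300 bases, from 250 before to 50 after the start, were found in RefSeq for 22 of the 28 genes and for 15 of the 18 enzymes. Some genes have more than 1 start, so that the enzymes gave 18 windows. TCACNCCAC, searched on both strands, was found in 1 of these 18 windows (5.56%) and in 1.24% of the 32851 windows of all genes. The match is TCACCCCAC in Hmgcs1, with its first base 137 bases before the start. Its nearest ATTGG lies 41 bases away, measured from the middle of one motif to the middle of the other. ATTGG was found on either strand in 77.8% of the enzyme windows and in 37.4% of all windows. The GC box GGGCGG was found in 83.3% of the enzyme windows against 35.7% of all windows, and the E-box CACGTG in 16.7% against 7.15%. The windows of all genes were not limited to genes expressed here, and no difference between these shares was tested. Matches to different motifs were counted separately, whether or not they overlapped. These matches describe letters in a window and not binding, which was not measured here.

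Libraries held between 3268948 and 9961032 counts, and mitochondrial genes took 1.61% to 2.42% of them. Values are CPM, a gene's counts scaled to a common library total after TMM scaling, which sets the scale from genes that differ little between libraries. BRB-seq, the method used, reads the 3′ ends of transcripts, so that gene length does not enter a CPM value directly. Foxa2 itself averaged 2.9, 11.9, 51.8 and 113 CPM from the negative to the high gate, in the order of the labels. Low 1 and medium 2 stood apart from the rest of their gates on the third principal component, at 29.56 and 36.51 where the others of both gates lay at or below -1.85. Counts without these libraries are given beside the results they change. The labels do not say that the 4 libraries of a gate came from separate cultures, so p-values measure only the spread between these libraries, and that spread may be technical.

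Most enzymes of cholesterol synthesis were highest in the FOXA2-negative gate. Of the 18 enzymes, 16 had their highest mean there and 12 had their lowest mean in the high gate. The shares of all genes with these orders were not taken. From the negative to the high gate 10 enzymes fell in the edgeR quasi-likelihood test (Benjamini-Hochberg adjusted p under 0.05 over all 13891 genes tested). None rose in that test, none rose at an unadjusted p under 0.05, and DESeq2 called 11 lower. Over all genes, 8.55% were called lower and 8.42% higher in this comparison. For 11 of the 18 enzymes all high libraries lay below all negative ones, where 11.1% of all genes did so. The median log2 fold change of the 18 enzymes was -0.47, against 0.002 over all genes tested. Insig1 fell by 0.93 on the log2 scale, and Npc1 and Npc2, the lysosomal exit proteins, rose. Over all 28 members, 13 of the 27 tested were called, 11 lower and 2 higher, where 17.0% of all genes were called in either direction. DESeq2 called 14 of them, and without low 1 and medium 2 the count was 15. Values from the negative gate enter each of the 3 comparisons with it, so these comparisons are not independent of each other.

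**Figure D1:**
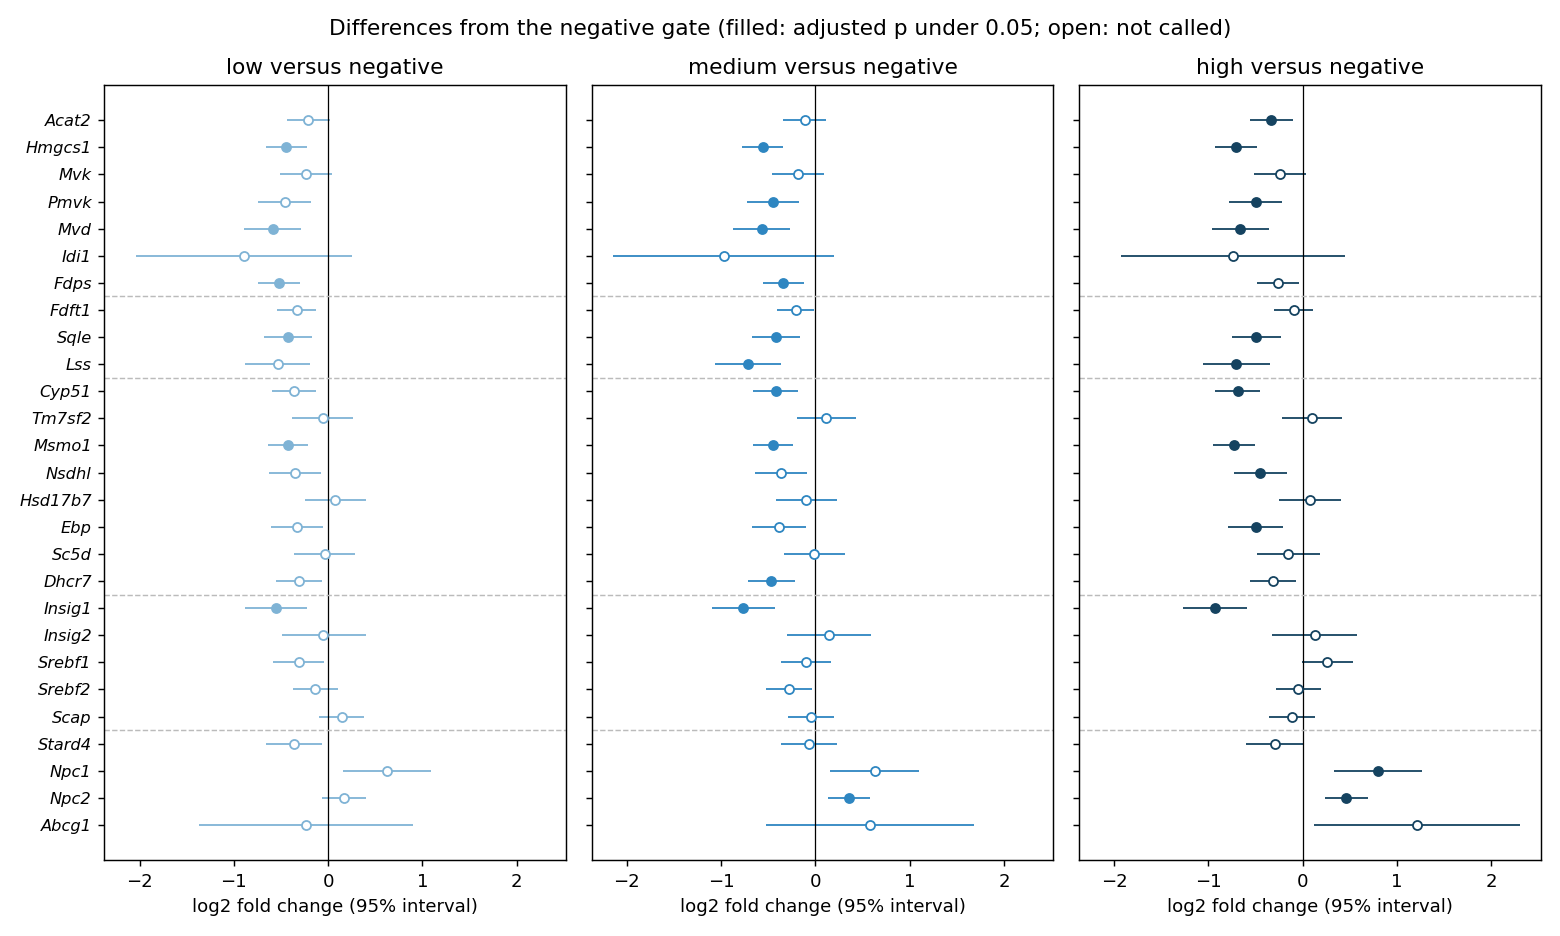
Log2 fold change of each of the 27 tested genes (x axis, point) with its 95% interval (line) in the low, medium and high gates against the negative gate, from the edgeR fit of 16 libraries. Genes stand in pathway order, dashed lines part acetyl-CoA to farnesyl diphosphate, squalene to lanosterol, lanosterol to cholesterol, SREBP control and transport, and filled points have an adjusted p under 0.05. Filled points lie left of 0 for 6 genes in the low panel, 10 in the medium panel and 11 in the high panel, and right of 0 for Npc2 in the medium gate and for Npc1 and Npc2 in the high gate.

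The 18 enzymes together summed to 1706, 1597, 1511 and 1523 CPM in the 4 negative libraries. They summed to 1203, 1216, 1217 and 1218 CPM in low libraries, 1260, 1127, 1368 and 1220 CPM in medium ones and 1225, 1248, 1198 and 1163 CPM in high ones. Every negative library thus lay above every library of the other 3 gates, which overlapped among themselves. The sum gives most weight to the genes with the most counts. In bulk RNA, fewer cells that express these genes and less RNA of them per cell cannot be told apart.

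Marker genes of other cell states also moved with the gates. The 10 pluripotency markers summed to between 605 and 1050 CPM in the negative libraries, 96.9 to 180 in low ones, 62.3 to 85.4 in medium ones and 54 to 87 in high ones, and 8 of the 9 tested fell from negative to high. Of these markers Pou5f1 was under 1 CPM in the low and medium gates and at 0 in the high gate. The fall of this sum, like that of the enzymes, was largest between the negative and low gates, and its part in the enzyme result was not tested. The 10 endoderm markers summed to 58.4 to 72.7 CPM in negative and 316 to 326 CPM in high libraries, with Hnf4a and Cubn under 1 CPM in every gate. Sox17 and Cldn6, at means of 134 and 148 CPM, made up most of the sum in the high gate. Of the 5 endoderm markers tested, 3 rose from negative to high. Gata4 averaged 3.96 CPM in negative and 2.13 CPM in high libraries and was not called. The 10 neural progenitor markers summed to 356 to 409 CPM in negative libraries, 353 to 447 in low ones and 106 to 149 in high ones, with Sox1 and Sox2 listed at 0 in every gate. The 8 floor plate markers summed to 39.3 to 46.8 CPM in negative libraries and 201 to 234 CPM in high ones. The 6 neuron markers summed to 142 to 221 CPM in negative and 59.7 to 85 CPM in high libraries, with Dcx under 1 CPM in every gate. The 6 mesoderm markers summed to 21.2 to 28.3 CPM in negative libraries and 45.7 to 57.6 in low ones. Their sums were 44.6 to 59.6 CPM in medium libraries and 31 to 37.8 in high ones, with Tbx6 under 1 CPM in every gate. The part of any of these lists in the sterol results was not tested.

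The first 7 enzymes lead from acetyl-CoA to farnesyl diphosphate. Hmgcs1, which joins acetyl-CoA to acetoacetyl-CoA to form HMG-CoA (chromosome 13, 119690379 to 119708260, plus strand, GRCm38), was measured at 184, 166, 167 and 157 CPM in negative libraries, 139, 122, 121 and 114 in low ones, 112, 113, 118 and 115 in medium ones and 120, 110, 95.3 and 86.8 in high ones. Negative libraries all lay above the others, and the 2 lowest values were in the high gate. The log2 fold change against the negative gate was -0.70 (SE 0.108, adjusted p = 1.64e-05) for high, -0.56 (SE 0.107, adjusted p = 0.000654) for medium and -0.44 (SE 0.107, adjusted p = 0.0133) for low libraries, all edgeR. The first 2 of these calls held under all 23 alternatives. In the low gate the call was lost without negative 1 (adjusted p = 0.0612) or without low 4 (adjusted p = 0.0674), and adjusted p ran over 0.000941 to 0.0674 in all alternatives.

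Mevalonate is phosphorylated by Mvk and Pmvk and then decarboxylated by Mvd. Pmvk read 54.4, 45, 50.1 and 42.1 CPM in negative libraries, 30.3, 36.6, 31.4 and 40.8 in low ones, 32.4, 31.1, 39.8 and 36.4 in medium ones and 30, 36.8, 33.4 and 35.8 in high ones. Its negative libraries lay above every library of the other gates. It fell in the high gate (log2 fold change -0.50 with SE 0.138 and adjusted p = 0.0115 by edgeR) and the medium gate (log2 fold change -0.45 with SE 0.136 and adjusted p = 0.0332). In the low gate its log2 fold change of -0.46 had an adjusted p of 0.0508, and it was called by DESeq2 (adjusted p = 0.0275), when replicate number was a block (adjusted p = 0.0495) and without negative 4, low 4 or medium 2 (adjusted p = 0.0421, 0.0374 and 0.0381). The high gate call was lost without high 1 (adjusted p = 0.0537, over a range of 0.00544 to 0.0537). The medium gate call was lost in 9 alternatives, among them those without negative 1, negative 3, medium 1, medium 2 or medium 4 (adjusted p from 0.0525 to 0.124, over a range of 0.0196 to 0.14). Mvd, at chromosome 8, 122433601 to 122443422, minus strand, stood at 78.7, 62, 64.3 and 65.7 CPM in negative libraries, 41.4, 41, 51.4 and 46 in low ones, 49.5, 30.9, 57.6 and 44.5 in medium ones and 41.8, 37.8, 48.4 and 42.5 in high ones. The negative libraries again lay above all others, and medium 2 was the lowest of the 16. Mvd fell in the high gate (log2 fold change -0.66 with SE 0.148 and adjusted p = 0.00187), the medium gate (log2 fold change -0.57 with SE 0.146 and adjusted p = 0.011) and the low gate (log2 fold change -0.59 with SE 0.146 and adjusted p = 0.0161). The high gate call held under all 23 alternatives. Without negative 1 the medium gate call was lost (adjusted p = 0.0525, range 0.00263 to 0.0525), and the low gate call was lost without negative 1, low 1 or low 2 (adjusted p = 0.0762, 0.0581 and 0.0563, range 0.00292 to 0.0762).

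Fdps makes farnesyl diphosphate, the branch point between sterols and other isoprenoids, and had its lowest mean in the low gate. It was measured at 328, 336, 289 and 293 CPM in negative libraries, 207, 237, 220 and 205 in low ones, 260, 205, 288 and 228 in medium ones and 258, 291, 263 and 223 in high ones. The highest library of the high gate, at 291 CPM, passed the lowest of the negative gate. Fdps fell in the low gate (log2 fold change -0.52 with SE 0.109 and adjusted p = 0.00319), a call kept under all 23 alternatives, and in the medium gate (log2 fold change -0.34 with SE 0.108 and adjusted p = 0.045). The medium gate call was lost in 14 alternatives, including the removal of negative 1, 2 or 4, low 3 or 4, medium 1, 2 or 4, or high 1 or 3 (adjusted p from 0.0543 to 0.134, range 0.0154 to 0.134). In the high gate the log2 fold change was -0.27 (SE 0.109, adjusted p = 0.094), which passed the threshold once low 1 and medium 2, or medium 2 alone, were left out (adjusted p = 0.0318 and 0.0395) and with only these gates fitted (adjusted p = 0.038). Near-identical copies of the end of Fdps exist, such as Gm3571 (99.2% identity over 476 bases), so its counts are uncertain to the extent that reads were shared.

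Among the other 3 early enzymes, Acat2, a cytosolic thiolase, averaged 121 ± 13 CPM (SD, n = 4) in negative and 96 ± 5.39 CPM in high libraries, with ranges of 109 to 139 and 91.8 to 103 CPM. It fell in the high gate (log2 fold change -0.33 with SE 0.113 and adjusted p = 0.0399). That call was lost without negative 1, 2 or 4, without high 1, 2 or 4, with no filter and at equal depth (adjusted p from 0.0516 to 0.15, over a range of 0.0144 to 0.15). Its end matches Acat3 and Tcp1 at 98.6% over 353 bases, so reads could be shared. Mvk, the mevalonate kinase, averaged 50, 42.6, 44 and 42.6 CPM and was not called (high against negative, log2 fold change -0.24 with SE 0.137 and adjusted p = 0.267). Idi1, the isomerase, had 141 counts in all, means of 1.08 to 2.13 CPM and no call, with a 95% interval of -1.93 to 0.45 for high against negative. A difference of the size seen in Hmgcs1 was not detectable for Idi1 at this depth.

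Squalene is made by Fdft1, oxidised by Sqle and closed into lanosterol by Lss. Sqle, which catalyses a rate-limiting oxygen-dependent step, was measured at 151, 128, 124 and 134 CPM in negative libraries, 107, 87.2, 98.7 and 106 in low ones, 96.6, 131, 82.6 and 92.6 in medium ones and 86.7, 94.1, 91.3 and 111 in high ones. Medium 2, at 131 CPM, lay within the negative range of 124 to 151 CPM, and the other 11 FOXA2-positive libraries lay below it. Sqle fell in the high gate (log2 fold change -0.49 with SE 0.126 and adjusted p = 0.00611), with the call kept in all 23 alternatives. It fell also in the medium gate (log2 fold change -0.42 with SE 0.125 and adjusted p = 0.0328) and the low gate (log2 fold change -0.43 with SE 0.124 and adjusted p = 0.049). The medium gate call was lost without negative 1, 2 or 4 or without medium 1, 3 or 4, and with only these gates fitted (adjusted p from 0.0501 to 0.136, range 0.00085 to 0.136). The low gate call was lost in 14 alternatives, among them the removal of any negative library, any low library, medium 1 or 4, or high 1, 2 or 3 (adjusted p from 0.0559 to 0.173, range 0.0127 to 0.173).

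Lss read 35.7, 37.1, 42.1 and 33.3 CPM in negative libraries, 25.5, 28.5, 26.5 and 21.8 in low ones, 25.1, 17.9, 29.1 and 18.2 in medium ones and 24.5, 26.7, 23.4 and 15.2 in high ones. The negative gate lay above all 12 other libraries, and the lowest value was high 4. Lss fell in the high gate (log2 fold change -0.71 with SE 0.173 and adjusted p = 0.00421) and the medium gate (log2 fold change -0.71 with SE 0.171 and adjusted p = 0.00584), and both calls held under all 23 alternatives. In the low gate its log2 fold change was -0.53 (SE 0.168, adjusted p = 0.0788), which passed with the replicate number in the model (adjusted p = 0.035) and with only the low and negative libraries fitted (adjusted p = 0.035). Fdft1, the squalene synthase, ranged over 193 to 222 CPM in negative libraries, 145 to 182 in low ones, 159 to 187 in medium ones and 177 to 202 in high ones. It was not called in any comparison, although its low and medium libraries lay below all negative ones. The low against negative difference (log2 fold change -0.33 with SE 0.0993 and adjusted p = 0.0565) was called by DESeq2 (adjusted p = 0.0139). EdgeR called it once low 1 and medium 2, or medium 2 alone, were left out (adjusted p = 0.031 and 0.0266) and when replicate number was a block (adjusted p = 0.0408). Ctsb lies on the other strand over the end of Fdft1, and without a known strand setting reads of the pair cannot be told apart.

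Of the 8 enzymes that turn lanosterol into cholesterol, 4 fell in the high gate: Cyp51, Msmo1, Nsdhl and Ebp. Msmo1, the C4 methyl sterol oxidase (chromosome 8, 64718139 to 64733792, minus strand), was measured at 146, 137, 120 and 127 CPM in negative libraries, 92.1, 100, 110 and 93.3 in low ones, 95.2, 88.5, 108 and 96.7 in medium ones and 79.9, 83, 76.1 and 80.4 in high ones. The negative gate was above all others, and the high gate was below all others. The log2 fold change was -0.73 (SE 0.106, adjusted p = 6.61e-06) for high, -0.45 (SE 0.104, adjusted p = 0.00457) for medium and -0.42 (SE 0.104, adjusted p = 0.0153) for low libraries. The first 2 calls held under all 23 alternatives. The low gate call was lost without negative 1, negative 2, low 1 or low 4 (adjusted p = 0.0717, 0.0536, 0.0583 and 0.0692, range 0.000957 to 0.0717).

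Cyp51, the lanosterol 14-alpha demethylase (chromosome 5, 4081145 to 4104746, minus strand), read 67.2, 65.4, 71.9 and 67.6 CPM in negative libraries, 55.1, 59, 47.6 and 50.1 in low ones, 49.9, 44.1, 51.5 and 57.6 in medium ones and 41.3, 39.1, 43 and 45.2 in high ones. Here too the negative libraries were the highest, and all 4 high libraries lay below every low and medium library except medium 2, at 44.1 CPM. Cyp51 fell in the high gate (log2 fold change -0.69 with SE 0.119 and adjusted p = 8.23e-05), kept in all 23 alternatives, and in the medium gate (log2 fold change -0.42 with SE 0.116 and adjusted p = 0.0189). The latter was lost without negative 3, medium 1 or medium 2, among 7 alternatives (adjusted p from 0.0562 to 0.108, range 0.00406 to 0.108). In the low gate its log2 fold change was -0.36 (SE 0.116, adjusted p = 0.0812), called by DESeq2 (adjusted p = 0.0308). The end of Cyp51 overlaps Akap9 on the other strand. Akap9 averaged 123 CPM in negative and 162 CPM in high libraries, a log2 fold change of 0.41 (adjusted p = 0.0156) in the opposite direction.

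Nsdhl and Ebp, a C4 demethylation dehydrogenase and the sterol isomerase, are both on the X chromosome. Nsdhl was measured at 59.8, 49.7, 48.5 and 51.2 CPM in negative libraries, 38.1, 45.1, 38 and 42.2 in low ones, 36.7, 33.6, 50.5 and 41.8 in medium ones and 34.5, 39.9, 36.9 and 42.5 in high ones. Medium 3, at 50.5 CPM, was the one FOXA2-positive library within the negative range. Nsdhl fell in the high gate (log2 fold change -0.45 with SE 0.136 and adjusted p = 0.0203), a call lost without negative 1, high 1 or high 3 (adjusted p = 0.0769, 0.0788 and 0.0572, range 0.00908 to 0.0788). Ebp, at chromosome X, 8185329 to 8193512, minus strand, read 55.6, 54.7, 47.9 and 42.6 CPM in negative libraries, 36.2, 42.1, 43.8 and 37.6 in low ones, 45.5, 31.2, 41.5 and 35.7 in medium ones and 33.5, 39.6, 30.3 and 39.2 in high ones. Its high libraries lay below the negative ones, while the low and medium gates overlapped them. Ebp fell in the high gate (log2 fold change -0.50 with SE 0.142 and adjusted p = 0.0132), which was lost without high 3 (adjusted p = 0.0636, range 0.00538 to 0.0636). In the medium gate the log2 fold changes were -0.36 (SE 0.134, adjusted p = 0.0951) for Nsdhl and -0.38 (SE 0.139, adjusted p = 0.0903) for Ebp. Both were called at equal depth (adjusted p = 0.038 and 0.0323), and Nsdhl also without medium 3 (adjusted p = 0.0285).

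Dhcr7 makes cholesterol in the final step of the Kandutsch-Russell branch, and its loss in humans causes Smith-Lemli-Opitz syndrome. It was measured at 64, 65.6, 59 and 71.7 CPM in negative libraries, 51.7, 54.4, 49.4 and 55 in low ones, 40.6, 47, 52.1 and 48.3 in medium ones and 59, 54, 43.8 and 52.5 in high ones. The medium gate was lowest, and high 1 equalled the lowest negative library, at 59 CPM. Dhcr7 fell in the medium gate (log2 fold change -0.47 with SE 0.12 and adjusted p = 0.0108), lost without medium 1 (adjusted p = 0.0588, range 0.00169 to 0.0588), while high against negative gave -0.32 (SE 0.121, adjusted p = 0.0703). DESeq2 called the high gate difference (adjusted p = 0.0458). Tm7sf2, Hsd17b7 and Sc5d, which act at the C14 reduction, the C4 demethylation and the C5 desaturation, had no call in any comparison. Their log2 fold changes for high against negative were 0.10, 0.08 and -0.15, with 95% intervals of -0.22 to 0.42, -0.25 to 0.41 and -0.48 to 0.18. The lower bounds of all 3 lie above the log2 fold change measured for Msmo1. Vps51 shares the end of Tm7sf2 over 279 bases, so that count is uncertain.

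**Figure D2:**
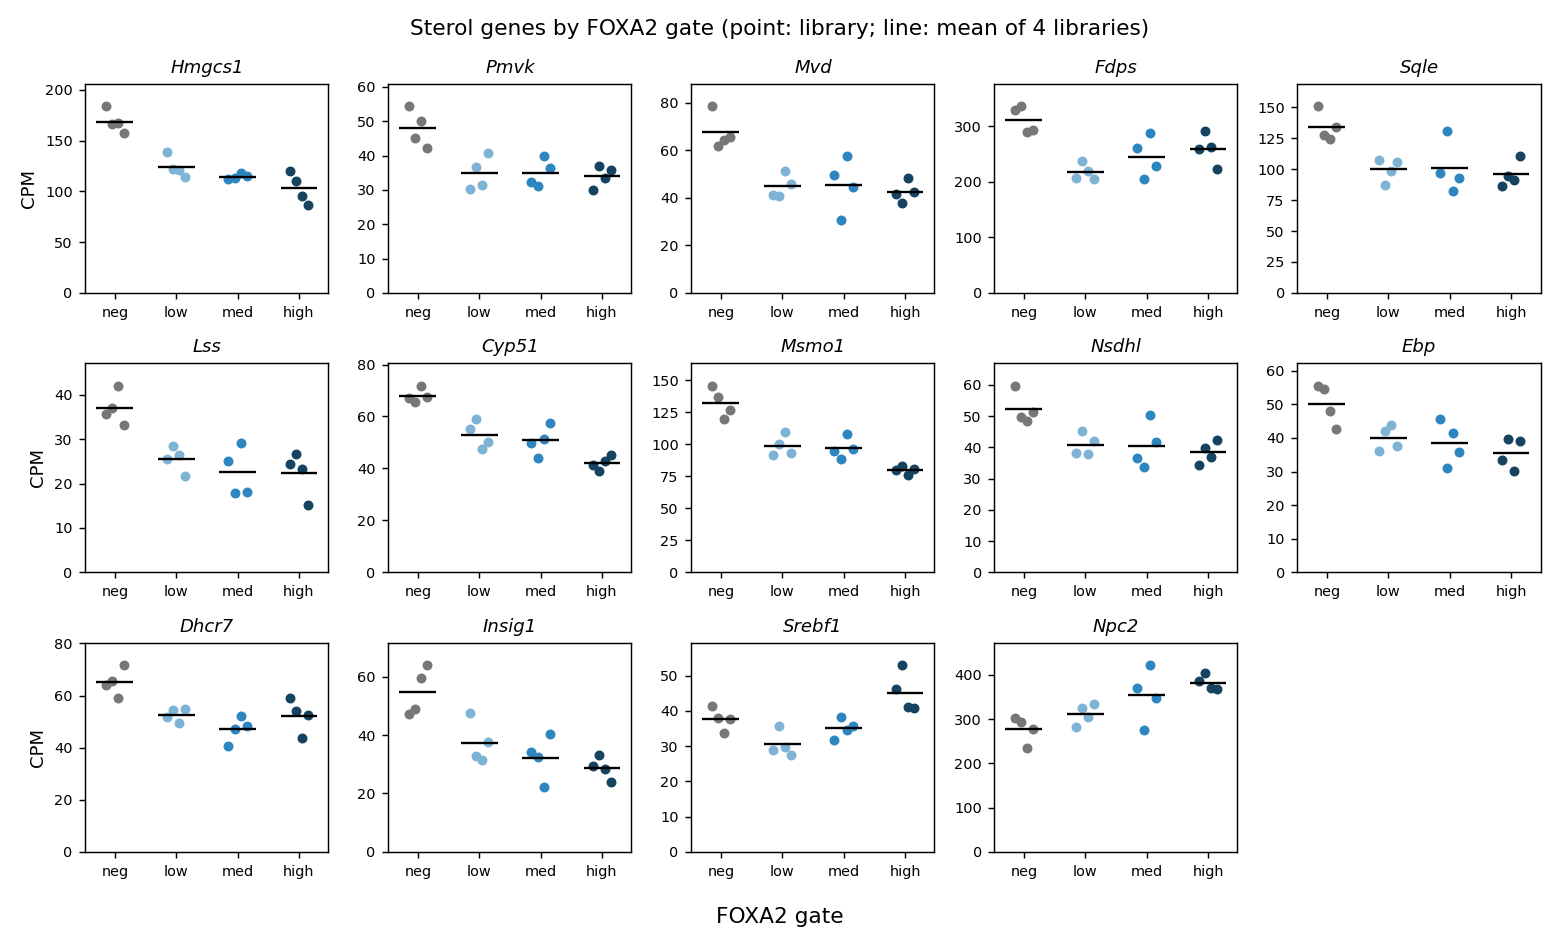
CPM (y axis, from 0) by FOXA2 gate (x axis) for the 14 genes with the smallest p over the 4 gates among those called in a pairwise comparison. Each point is a library and each line the mean of 4 libraries. Hmgcs1, Lss, Cyp51 and Msmo1 have all 4 negative libraries above the rest, Srebf1 is highest in the high gate, and Npc2 rises from a mean of 277 to 382 CPM.

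Of the SREBP control genes, Insig1 changed most and the SREBP2 side did not pass the test. Insig1 (chromosome 5, 28071363 to 28078662, plus strand) was measured at 47.2, 49, 59.5 and 64 CPM in negative libraries, 47.6, 32.8, 31.4 and 37.8 in low ones, 34.2, 32.6, 22.2 and 40.4 in medium ones and 29.5, 33.3, 28.3 and 24 in high ones. Low 1 lay within the negative range, and the high gate lay wholly below it. Insig1 fell in the high gate (log2 fold change -0.93 with SE 0.167 and adjusted p = 0.000146) and in the medium gate (log2 fold change -0.76 with SE 0.164 and adjusted p = 0.0021), each kept in all 23 alternatives. Its fall in the low gate (log2 fold change -0.55 with SE 0.162 and adjusted p = 0.0488) was lost in 12 alternatives, among them without negative 2, 3 or 4, low 2, 3 or 4, medium 1 or any high library (adjusted p from 0.0502 to 0.194, range 0.0122 to 0.194). The fall in the high gate was the largest among the called genes of the list on the log2 scale.

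Srebf1, which encodes the SREBP that favours fatty acid genes (chromosome 11, 60199089 to 60222581, minus strand), followed another course. It read 41.5, 38.1, 33.6 and 37.7 CPM in negative libraries, 29, 35.6, 29.7 and 27.5 in low ones, 31.8, 38.3, 34.6 and 35.7 in medium ones and 46.3, 53, 41 and 40.7 in high ones. The high gate lay above the low and medium gates without overlap and overlapped the negative gate. Srebf1 was higher in the high than in the low gate (log2 fold change 0.57 with SE 0.134 and adjusted p = 0.00569), and this was kept in all 23 alternatives. Against the negative gate its log2 fold changes were -0.31 (SE 0.132, adjusted p = 0.243) in the low gate and 0.26 (SE 0.132, adjusted p = 0.192) in the high gate. Rai1 overlaps the end of Srebf1 on the other strand and also rose from the negative to the high gate, from 27 to 42.2 CPM (log2 fold change 0.64, adjusted p = 0.0134), so the Srebf1 count is uncertain without the strand setting. Srebf2, which encodes the SREBP that favours cholesterol genes, averaged 65.3, 59.4, 53.8 and 63.2 CPM. Its log2 fold change for high against negative was -0.05, with a 95% interval of -0.28 to 0.19. Scap, the SREBP escort, stayed between means of 48 and 57.2 CPM, and Insig2 between 16 and 18.3 CPM, with no call for either in any comparison.

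Among the transport genes, Npc1 and Npc2 rose in the high gate. Npc2, the soluble lysosomal cholesterol carrier (chromosome 12, 84754562 to 84773152, minus strand), was measured at 302, 294, 235 and 277 CPM in negative libraries, 283, 324, 305 and 335 in low ones, 370, 275, 422 and 348 in medium ones and 385, 403, 371 and 368 in high ones. The high gate was above the negative and low gates, and the medium gate spanned most of the range. Npc2 rose in the high gate (log2 fold change 0.46 with SE 0.111 and adjusted p = 0.0034), kept in all 23 alternatives, and in the medium gate (log2 fold change 0.35 with SE 0.111 and adjusted p = 0.0417). The medium gate call was lost in 8 alternatives, among them without negative 2, 3 or 4 or medium 1, 3 or 4 (adjusted p from 0.0596 to 0.16, range 0.000586 to 0.16). Npc1, its membrane partner, averaged 13.5 ± 1.98 CPM (SD, n = 4) in negative and 23.2 ± 7.49 CPM in high libraries. Negative libraries ranged over 11.6 to 16.2 CPM and high ones over 12.9 to 30.3 CPM, and high 2 lay within the negative range. Npc1 rose in the high gate (log2 fold change 0.80 with SE 0.229 and adjusted p = 0.0154), lost without negative 2 (0.73, adjusted p = 0.0531) or high 1 (0.64, adjusted p = 0.0851, range 0.000591 to 0.0851). Rmc1 and Gm15956 overlap Npc1 and were not analysed here, so its count is uncertain.

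Abcg1, a sterol exporter, ranged over 0.808 to 5.11 CPM in negative and 4.86 to 10.4 CPM in high libraries. Its log2 fold change of 1.21 (SE 0.518, adjusted p = 0.125) was not called. It was called without low 1 and medium 2 (1.21, adjusted p = 0.0156), as it was without medium 2 alone (adjusted p = 0.0283), over a range of 0.00448 to 0.247. Abca1 averaged 0.307 CPM in negative and 1.06 CPM in high libraries, at a depth where 3 counts were worth up to 0.911 CPM, and no fold is given. Stard4, a cytosolic sterol carrier, averaged 32.2 CPM in negative and 26.4 CPM in high libraries (log2 fold change -0.29 with SE 0.149 and adjusted p = 0.19). Its negative libraries lay above all high ones, but it was not called in any comparison.

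Part of the differences from the negative gate was called in the low gate as well. In low versus negative, 6 members fell, 5 of the 6 being enzymes (Hmgcs1, Mvd, Fdps, Sqle and Msmo1), where 2.29% of all genes were called lower and 1.47% higher. No member rose by edgeR or DESeq2, and 1 was higher at an unadjusted p under 0.05, Npc1. DESeq2 called 9 in all, and 7 were called without low 1 and medium 2. For 11 of the 18 enzymes all low libraries lay below all negative ones, where 5.60% of all genes did so. The count of 6 fell to 2 without negative 1 and to 3 without negative 2, low 1, low 2 or low 4. In medium versus negative, 10 fell and 1 rose, 9 of them enzymes that fell, where 4.22% of all genes were called lower and 4.24% higher. The count of 11 was 8 without low 1 and medium 2, 7 without negative 1 or medium 4, 5 without medium 1, and 6 with only these gates in the fit. The median log2 fold change of the 18 enzymes was -0.36 for low, -0.4 for medium and -0.47 for high against negative.

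Between the FOXA2-positive gates few members were called, and the shares of all genes called were also small. For medium versus low, edgeR called 0 of 27, with 0 at an unadjusted p under 0.05 and 0 by DESeq2, where 0.713% of all genes were called. For high versus medium it called 0 of 27, with 3 at an unadjusted p under 0.05 (Srebf1 higher, Cyp51 and Msmo1 lower) and 0 by DESeq2, where 0.914% of all genes were called. For high versus low it called 1, Srebf1, where 3.79% of all genes were called higher and 6.87% in either direction. None of the 18 enzymes was called in that comparison, 5 had an unadjusted p under 0.05, and DESeq2 called Msmo1 (adjusted p = 0.038). Without low 1 and medium 2, edgeR called 3 members, and Msmo1 was among them (log2 fold change -0.35, adjusted p = 0.0302), with Abcg1 higher (1.9, adjusted p = 0.00353). Without medium 2 alone the count was 4, and without negative 1 or low 1 it was 2. The 5 enzymes with an unadjusted p under 0.05 were split: Hmgcs1, Cyp51 and Msmo1 were lower in the high gate (-0.26, -0.33 and -0.31), and Fdps and Fdft1 were higher (0.25 and 0.24). The test over all 4 gates called 12 of 27 members, 9 of them enzymes, where 13.7% of all genes were called.

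**Figure D3:**
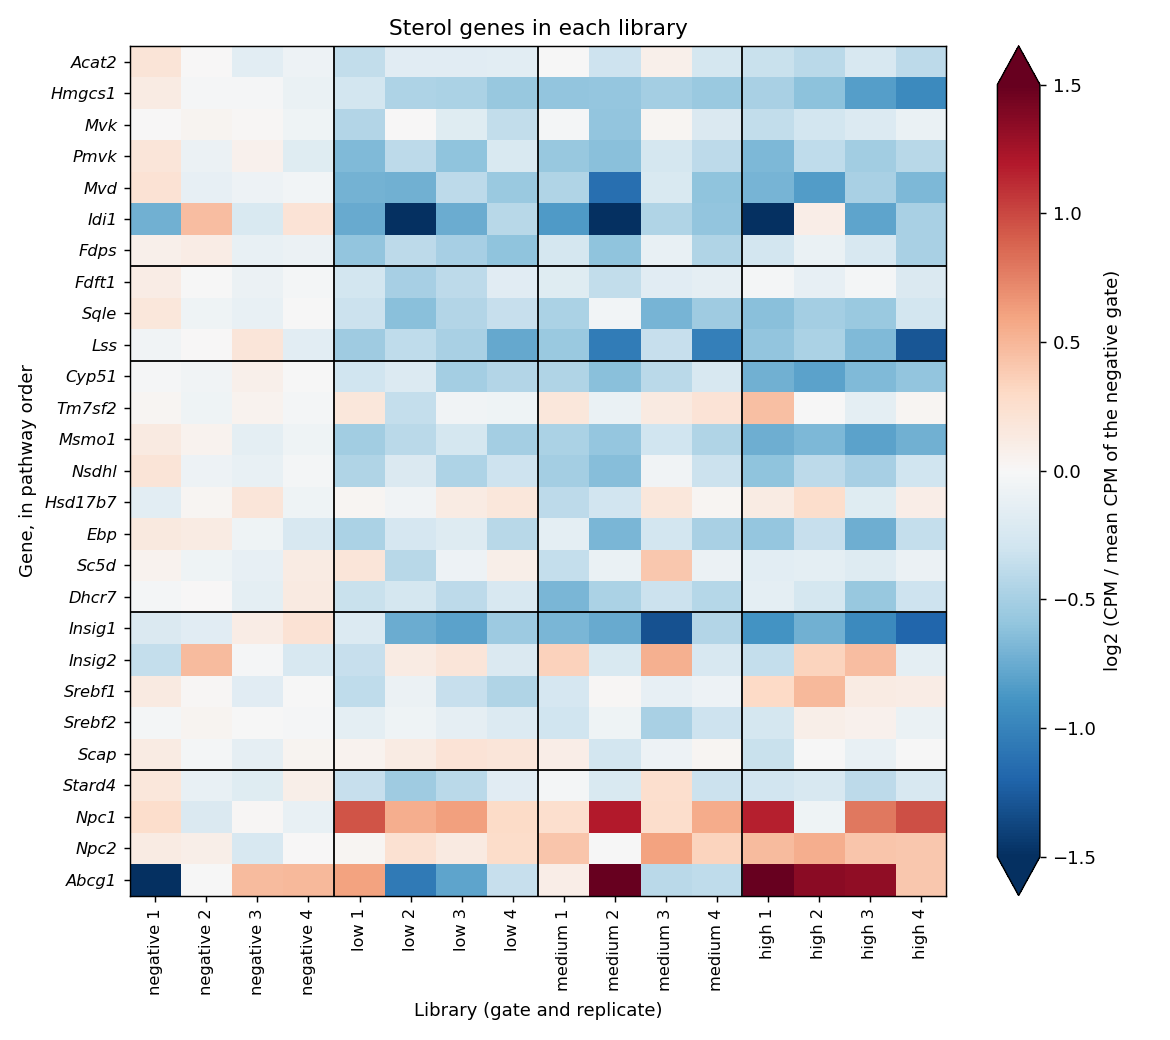
Log2 ratio of each library's CPM to the mean CPM of the negative gate (colour, cut at 1.5 either way) for the 27 tested genes (rows, in pathway order) in the 16 libraries (columns, by gate). Blue cells are below the negative mean and red cells above it. Rows from Hmgcs1 to Dhcr7, other than Idi1, Tm7sf2, Hsd17b7 and Sc5d, are mostly blue in the 12 FOXA2-positive libraries, Npc1 and Npc2 are mostly red, and Idi1 and Abcg1 vary between libraries of the same gate.

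Within gates, deviations of the enzymes from their gate means ran together only weakly. The median Pearson correlation over the 153 pairs of enzymes was 0.19 across the 16 libraries, and 71.9% of pairs were positive. Against all other tested genes the median was -0.01. Insig1 correlated positively with 6 of the 18 enzymes (median -0.17), Srebf1 with 10 (median 0.01) and Npc1 with 5 (median -0.29). Npc2, which rose in the high gate where most enzymes were lower, correlated positively with 17 (median 0.47). The points of these correlations share library, depth and scaling, and the values are given as a description.

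Genes next to the sterol pathway were read from lists by function. In high versus negative, 8.42% of all genes were called higher, 8.55% lower and 17.0% in either direction, with a median log2 fold change of 0.002. Of 13 fatty acid synthesis genes, 4 fell from the negative to the high gate, with a median log2 fold change of -0.29. Acacb, an acetyl-CoA carboxylase, went from 39 to 21.8 CPM (log2 fold change -0.84 with SE 0.175 and adjusted p = 0.000908), and Acly, which supplies cytosolic acetyl-CoA, from 82.8 to 61.7 CPM (log2 fold change -0.43 with SE 0.118 and adjusted p = 0.0103). Scd1, a fatty acid desaturase, went from 34.1 to 22.8 CPM (log2 fold change -0.59 with SE 0.187 and adjusted p = 0.0283). The Acly call was lost without high 1 (adjusted p = 0.0543), and that of Scd1 without negative 1, negative 3 or high 3 (adjusted p = 0.186, 0.0513 and 0.122). The remaining one, named after its values were seen, was Fasn, the fatty acid synthase (log2 fold change -0.31 with SE 0.107 and adjusted p = 0.0408), lost with no filter and without negative 1, 2 or 3 or high 1, 2 or 3 (adjusted p from 0.0504 to 0.128). Of 9 genes of the isoprenoid branch after farnesyl diphosphate, 1 was called, a share below that of all genes, and the median log2 fold change was 0.08. It was Coq2, of ubiquinone synthesis (log2 fold change 0.56 with SE 0.174 and adjusted p = 0.023), lost at equal depth and without negative 3, negative 4 or high 4 (adjusted p = 0.0661, 0.0525, 0.0828 and 0.138). Of 7 partners of the sterol enzymes tested, 1 fell: Aacs, the acetoacetyl-CoA synthetase (log2 fold change -0.57 with SE 0.153 and adjusted p = 0.00881). Cyb5r3, which passes electrons to sterol oxidases, rose in the medium gate (log2 fold change 0.37 with SE 0.115 and adjusted p = 0.0402), lost without any 1 negative library, without medium 1, 3 or 4, and with only these gates fitted (adjusted p from 0.0548 to 0.14).

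Of 23 other genes of sterol uptake, transport and storage tested, 3 rose and 2 fell in the high gate, where 8.42% and 8.55% of all genes did so, and their median log2 fold change was 0.15. Apoe, which carries cholesterol in lipoproteins of neural tissue, averaged 1920, 1420, 1250 and 1210 CPM from the negative to the high gate (log2 fold change -0.67 with SE 0.0911 and adjusted p = 2.17e-06 for high against negative). Scarb1, the HDL receptor, rose (log2 fold change 0.40 with SE 0.115 and adjusted p = 0.0136), lost without negative 3 (adjusted p = 0.0531). Osbpl9, an oxysterol-binding protein, also rose (log2 fold change 0.44 with SE 0.125 and adjusted p = 0.0144), lost without negative 1, negative 4 or high 4 (adjusted p = 0.0571, 0.0593 and 0.0596). Soat1, which esterifies cholesterol for storage (log2 fold change 0.49 with SE 0.156 and adjusted p = 0.0283), and Lrp8, a lipoprotein receptor (log2 fold change -0.94 with SE 0.272 and adjusted p = 0.0148), were the other two, named after their values were seen. The Soat1 call was lost without negative 2, negative 4 or high 4 (adjusted p = 0.104, 0.0742 and 0.125). Of 10 genes of SREBP processing and turnover, 1 rose, near the 8.42% of all genes, and the median log2 fold change was 0.07. It was Syvn1, a ubiquitin ligase of the endoplasmic reticulum (log2 fold change 0.59 with SE 0.179 and adjusted p = 0.0218), lost without negative 2, high 1, high 3 or high 4 (adjusted p = 0.0737, 0.0757, 0.0577 and 0.0611), with no filter (adjusted p = 0.0578) and at equal depth (adjusted p = 0.126).

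Hedgehog pathway genes moved in both directions beside the sterol genes. Of 13 tested, 3 rose and 3 fell from the negative to the high gate, where 8.42% of all genes rose and 8.55% fell, and their median log2 fold change was 0.03. Beside Ptch1, Boc and Gli2, these were Hhip and Disp1, which rose, and Gli3, which fell, named after their values were seen. The Disp1 call was lost without negative 2 or 4 or high 1, 3 or 4 (adjusted p from 0.0744 to 0.129), and that of Gli3 without negative 1 or high 2 (adjusted p = 0.0666 and 0.0648). Ptch1, the SHH receptor and a target of the pathway, averaged 28.6, 33.1, 66.3 and 117 CPM (log2 fold change 2.03 with SE 0.196 and adjusted p = 8.72e-08). Boc, a co-receptor, fell from 44.7 to 10.9 CPM (log2 fold change -2.06 with SE 0.199 and adjusted p = 5.94e-09), and the effector Gli2 fell from 28.9 to 14.7 CPM (log2 fold change -0.98 with SE 0.189 and adjusted p = 0.000335). Smo averaged 13 and 16.2 CPM in these gates (log2 fold change 0.32 with SE 0.196 and adjusted p = 0.289), and Gli1 14 and 19.8 CPM (log2 fold change 0.52 with SE 0.221 and adjusted p = 0.106), neither called. Ptch1 was 33.1 CPM in the low gate against 28.6 in the negative gate (log2 fold change 0.21 with SE 0.197 and adjusted p = 0.711). Hmgcs1, Mvd, Fdps, Sqle, Msmo1 and Insig1 were called lower in that comparison. Of these calls only that of Fdps was kept under all 23 alternatives, and those of Sqle and Insig1 were lost in 14 and 12. The gates are all of day 4 and give no order in time, and a link between Ptch1 and the sterol genes was not tested.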

How the data were processed

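The authors deposited raw counts, whole numbers for 35976 genes in 16 libraries, not normalized. Per the submitters' processing notes, the tools were STARsolo 2.7.9a, cutadapt 1.18 and DESeq2 1.42.0, on build GRCm38. For strand setting, annotation and molecular identifiers the sources used here give nothing. Coordinates are from GENCODE M21.

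The expression filter of edgeR left 13891 genes (at least 99.665% of each library's counts), scaled by TMM (factors 0.97 to 1.05), and tested with a robust edgeR 4.0.16 quasi-likelihood model of the 4 gates over 16 libraries in R 4.3.3. P-values were adjusted by Benjamini-Hochberg over all genes, with a threshold of 0.05; every adjusted p not credited to DESeq2 is from edgeR. SE is the size of the log2 fold change over the root of its F value. Levels are CPM as mean ± SD over 4 libraries. Totals of 3268948 to 9961032 counts make 3 counts worth at most 0.911 CPM, for counting error only. No 2 libraries of a gate agreed within sampling noise (smallest chi-square per degree of freedom 4.25 over 24 pairs).

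Members and lists were chosen with earlier results of these data known. Values in every library are given for the 14 members with the smallest p over the 4 gates among those called in a pairwise comparison. The other called members are given by means and range, and other lists by up to 3 called genes with the smallest p, plus Foxa2, Ptch1, Gli1, Smo and Apoe. Of the 129 genes on 12 other lists, Erg28 was not found under that symbol. Alternatives were RLE scaling, DESeq2, no filter, the replicate number as a block, thinning to equal totals, leaving out each library, only the gates compared, and the fit without low 1 and medium 2. Counts were also simulated for all 16 libraries, with genes changed in the high gate only. For high versus negative the fit called 31 of 100 genes made to differ 1.5-fold, 65 of 100 made to differ 2-fold and 3 of 13691 left alone. Far fewer genes differed there than were called in the data, which makes the adjustment of p stricter. These shares are therefore not the power of the main test.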

Additional observations from a re-analysis of the deposited data

Results flagged for a closer look

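Single libraries stood far from the other 3 of their gate in 2 of the 112 sets of 4 values examined, where chance gives about 1 in 20. Acat2 was 93.6 CPM in low 1 and 108 to 109 CPM in the other low libraries, a gap of 0.939 of the range of the gate. Abcg1 was 12.7 CPM in medium 2 and 2.76 to 3.93 CPM in the other medium libraries, a gap of 0.882 of the range. Both are the libraries that stood apart on the third principal component.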

How the results depend on the processing

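Of the 31 calls of members in the pairwise comparisons, 14 held under every alternative, 17 were lost under at least 1, and 0 changed direction. Members called were 13 for high versus negative (9 to 15 with 1 library left out), 11 for medium versus negative (5 to 12), 6 for low versus negative (2 to 8), 0 for medium versus low and for high versus medium (0 throughout), 1 for high versus low (1 to 4) and 12 over the 4 gates (9 to 17). With only the 2 gates compared in the fit, medium versus negative gave 6 members. For high versus low, 2 were called with no filter, 3 without low 1 and medium 2, 3 with only the 2 gates compared and 2 by DESeq2. The cause was not tested. The replicate number as a block gave 13, 11, 9 and 1 members for high, medium and low versus negative and for high versus low. Same-numbered libraries deviated together with a median correlation of 0.029 (-0.082 to 0.216, 6 of 24 pairs over 0.1, against 3 of 72 pairs with different numbers), and 11 of 16 libraries correlated best with their own number. The titles list the 4 gates under each number but do not say what libraries of a number share. The main test left the numbers out, and these values do not exclude that libraries of a number are paired. The block added Pmvk, Fdft1 and Lss in low versus negative. Low counts limit Idi1, Abcg1 and Abca1.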
